A study of Mus musculus with 36 samples.

Results

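The lipogenesis genes studied here are 9 genes of liver fatty acid synthesis: the enzymes Acly, Acaca, Acacb, Fasn and Me1, the lipogenic protein Thrsp, the lipid droplet protein Pnpla3, and the transcription factors Srebf1 and Mlxipl. They were chosen by name: a probe belongs to the set when its gene name in the scanner files, or the current symbol of its accession, is 1 of these 9. They are 9 of the 18827 genes that the arrays name, and have 16 probes of the 41174 that are not controls, and 15 of these 16 are among the 21781 probes of the authors' table. The probe left out there is a second Acly probe, which was well above background on 6 of 36 arrays.

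Liver RNA came from 36 adult male mice, labelled C57BL/6J (C57BL/6JOlaHsd in the study's methods), 12 in each of 3 groups. All mice first ate a mild-high-fat diet, with 30% of its energy from fat, during an adaptation of 3 weeks according to the sample labels. The baseline group was killed at that point (0 weeks of intervention). The control group stayed on the same diet for 12 more weeks, and the quercetin group ate it for those 12 weeks with 0.33% (w/w) quercetin, a plant flavonoid, added. No group ate a low-fat diet. The study's methods state a brief fast before the mice were killed after the 12 weeks, and do not describe the baseline mice. The baseline mice differ from the other 2 groups in both age and time on the diet, which cannot be told apart. Each 2-colour array held the Cy5-labelled RNA of a single liver beside a Cy3-labelled pool of all samples, and a level below is the authors' processed log2 value, on which 1 unit is a doubling. A level has a meaning only within a probe, so levels are compared between livers and not between genes.

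De novo lipogenesis turns surplus carbohydrate into fatty acids. Acly (ATP citrate lyase) releases acetyl-CoA from citrate, and the acetyl-CoA carboxylases convert it to malonyl-CoA. Acaca makes the malonyl-CoA used for synthesis, and Acacb sits at the mitochondrion, where malonyl-CoA restrains the entry of fatty acids for oxidation. Fasn (fatty acid synthase) builds palmitate from these units with NADPH, part of which comes from malic enzyme, Me1. In the liver the pathway is known to rise with feeding and insulin and to fall in fasting. SREBP-1c, made from Srebf1, carries the insulin signal, and ChREBP, made from Mlxipl, responds to glucose metabolites. Thrsp and Pnpla3 are known targets of both.

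The sequences just upstream of the gene starts are shown for 4 genes whose levels moved together across livers (Fasn, Acly, Thrsp and Pnpla3) and for Mlxipl, whose correlations with the other 8 genes did not pass the test. Each line holds the 250 bases before a RefSeq gene start in build GRCm38.p6, 5′ to 3′ on the strand of the gene. Capitals mark matches on either strand to CCAAT (the CCAAT box), GGGCGG (the GC box), CACGTG (the E-box) or TCACNCCAC (a form of the sterol regulatory element).
Fasn: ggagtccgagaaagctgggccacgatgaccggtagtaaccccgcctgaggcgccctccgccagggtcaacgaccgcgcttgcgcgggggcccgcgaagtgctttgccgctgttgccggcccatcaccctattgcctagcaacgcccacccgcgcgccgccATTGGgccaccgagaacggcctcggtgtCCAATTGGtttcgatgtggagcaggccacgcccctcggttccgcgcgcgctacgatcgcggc
Acly: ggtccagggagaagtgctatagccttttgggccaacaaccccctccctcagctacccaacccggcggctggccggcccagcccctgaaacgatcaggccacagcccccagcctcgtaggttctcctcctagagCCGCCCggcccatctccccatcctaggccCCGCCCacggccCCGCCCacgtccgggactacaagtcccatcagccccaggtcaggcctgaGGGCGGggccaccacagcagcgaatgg
Thrsp: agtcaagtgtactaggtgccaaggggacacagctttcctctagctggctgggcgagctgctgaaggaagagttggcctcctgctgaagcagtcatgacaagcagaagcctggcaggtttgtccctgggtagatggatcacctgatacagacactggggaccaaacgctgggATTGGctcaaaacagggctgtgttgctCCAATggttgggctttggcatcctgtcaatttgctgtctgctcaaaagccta
Pnpla3: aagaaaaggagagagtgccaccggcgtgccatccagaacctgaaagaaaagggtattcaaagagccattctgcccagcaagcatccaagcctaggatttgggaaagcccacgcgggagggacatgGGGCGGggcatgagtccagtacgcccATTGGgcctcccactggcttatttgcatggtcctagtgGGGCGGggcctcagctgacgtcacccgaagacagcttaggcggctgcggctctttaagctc
Mlxipl: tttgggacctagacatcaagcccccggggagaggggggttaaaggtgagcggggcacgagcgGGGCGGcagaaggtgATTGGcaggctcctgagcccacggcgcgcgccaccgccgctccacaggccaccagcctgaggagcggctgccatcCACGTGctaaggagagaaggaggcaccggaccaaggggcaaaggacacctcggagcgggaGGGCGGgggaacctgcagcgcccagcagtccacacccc
These windows lie at chr11:120824548-120824797 (minus strand) for Fasn, chr11:100528001-100528250 (minus) for Acly, chr7:97417551-97417800 (minus) for Thrsp, chr15:84167566-84167815 (plus) for Pnpla3 and chr5:135089640-135089889 (plus) for 1 of the 2 RefSeq starts of Mlxipl.

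The Fasn window held CCAAT 3 times, at 90 to 86, 62 to 58 and 59 to 55 bases upstream, and the last 2 of these overlap on opposite strands. Thrsp held it 2 times and Pnpla3 1 time, while the Acly window held no CCAAT and 4 GC boxes. Over the 13 RefSeq start windows of the 9 genes, 8 held CCAAT and 6 held GGGCGG, against 33.8% and 32.7% of all 32851 such windows. CACGTG stood in 1 of the 13 windows, the Mlxipl window shown, and is found in 6.02% of all windows. TCACNCCAC stood in the window of the other Mlxipl start and is found in 1.05% of all windows. These matches are a description of the letters, not of bound factors.

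All 9 genes were measured well in liver except Pnpla3, which was dim. The brightest probe of each gene is described unless another is named. Its mean Cy5 signal ranged from 17.6 times background for Acaca to 1970 times for Fasn, while that of Pnpla3 was 5.45 times background and was well above background on 35 of 36 arrays. In mouse build mm8, as the array files give it, these probes map to chr11:120623236-120623295 for Fasn, chr11:100293293-100293351 for Acly, chr11:84217052-84217111 for Acaca, chr5:114511625-114511685 for Acacb, chr9:86378398-86378458 for Me1, chr7:97292244-97292303 for Thrsp, chr15:84017159-84017218 for Pnpla3, chr5:135422262-135422321 for Mlxipl and chr11:60015907-60015966 for Srebf1. No annotation of that build was used here, so exons are not assigned. No member probe was saturated on any array. Hepatocyte markers were high on all arrays: Alb lay 11400 times above background, and the summed level of 5 markers ranged from 19.99 to 20.92 over the 36 livers. Among the adipocyte markers Adipoq, Plin1, Lep and Retn, whose cells also make fatty acids, the mean signal was 1.32 to 2.13 times background and none was in the authors' table. The other 3 of the 7 markers were in it, with Fabp4 at 98.4, Cfd at 5.16 and Lipe at 4.13 times background.

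A pair of arrays stood apart. The array of quercetin replicate 2 was brighter than the rest, with a median Cy5 signal 8.95 times background against 2.04 to 3.22 times on the other 35. The liver of control replicate 5 carried pancreatic acinar markers (Pnlip, Cela1, Cela2a, Ctrb1 and Cpa1), with a summed level of 21.53 against 11.32 to 11.9 in the other livers. Fits of the 9 genes and of the lists were repeated without either array, and the correlations without both, and the calls that changed are given beside the results.

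Over the 12 weeks from baseline to the control group, Fasn, Me1 and Pnpla3 rose and the other 6 genes did not pass the test. Fasn rose 1.79-fold, Me1 1.4-fold and Pnpla3 1.99-fold. Of the 15 member probes, 4 were called at an adjusted p under 0.05, all of them higher in the control group, against 21.3% of all 21781 probes called in either direction, 10.9% higher and 10.4% lower. The median log2 difference over the 9 genes was 0.28, with a range from -0.13 to 0.99, and that over all probes was 0.

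Fasn levels in the baseline livers ran from 15.08 to 17.45 with a median of 15.88. In the control livers they ran from 15.87 to 17.48 with a median of 16.94, and in the quercetin livers from 15.3 to 17.97 with a median of 16.66. The 3 ranges overlapped, but 11 of 12 control livers lay above the baseline median. The mean was 16.03 ± 0.72 (SD, n = 12) at baseline and 16.87 ± 0.48 (SD, n = 12) in the control group, a log2 difference of 0.84 (standard error 0.23, adjusted p = 0.0106). Within slides, which each hold 4 arrays and all 3 groups, the control livers were higher on 8 of 9 slides. The second Fasn probe (chr11:120622442-120622501, mm8) gave 0.72 with an adjusted p of 0.0316. Without control replicate 5 the difference was 0.78 for Fasn (adjusted p = 0.0168), 0.50 for Me1 (adjusted p = 0.0153) and 0.89 for Pnpla3 (adjusted p = 0.0265).

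Me1 was higher by less, and more evenly across livers. Its level ran from 11.18 to 12.62 at baseline (median 11.69), from 11.94 to 12.93 in the control group (median 12.17) and from 10.8 to 12.89 in the quercetin group (median 12.21). All 12 control livers lay above the baseline median, although the ranges overlapped. The control group was higher than baseline by 0.48 on the log2 scale (standard error 0.14, adjusted p = 0.0156), and was higher on 7 of 9 slides. A further probe carries the name Mod1, an older name of Me1, and an accession that did not match the RefSeq table. It followed Me1 across livers with r = 0.92, its difference was 0.36, and it was not called (adjusted p = 0.0722).

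Pnpla3, which encodes a lipid droplet acyl hydrolase, had the largest pooled SD of the 9 genes (0.89, against 0.87 for Thrsp), although at baseline Thrsp varied more (SD 1.06, against 0.61 for Pnpla3). Its level ran from 6.44 to 8.42 at baseline (median 6.97), from 6.64 to 9.72 in the control group (median 8.06) and from 5.92 to 9.19 in the quercetin group (median 7.59). The highest control liver was 8.46 times the lowest, and 11 of 12 control livers lay above the baseline median. The control group was higher than baseline by 0.99 (standard error 0.29, adjusted p = 0.0165) and higher on 8 of 9 slides. The authors' values carry no background correction, and the difference of a probe this dim depended on the processing. With the background-adjusted signals of Feature Extraction it was 1.74 (adjusted p = 0.00562), the highest of 11 alternative settings, and the lowest was 0.81.

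The remaining genes did not pass the test between control and baseline. Srebf1 came closest: its level ran from 14.72 to 16.05 at baseline and from 14.53 to 16.59 in the control group, a difference of 0.38 with a 95% confidence interval from 0 to 0.77 and an adjusted p of 0.142. Leaving out control replicate 1, the lowest control liver, gave 0.50 and an adjusted p of 0.0271, so the Srebf1 call depended on that liver. The differences were 0.28 for Acacb (interval -0.13 to 0.69), 0.27 for Acly (-0.12 to 0.66) and 0.19 for Acaca (-0.08 to 0.46). A second, dim Acacb probe gave -0.11, and the other Acaca probes, also dim, gave 0.14, -0.01 and 0.01. Thrsp differed by -0.13 (interval -0.82 to 0.57), too wide to place the gene on either side. Mlxipl differed by -0.03 (-0.19 to 0.14), the narrowest interval of the 9 genes.

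**Figure D1:**
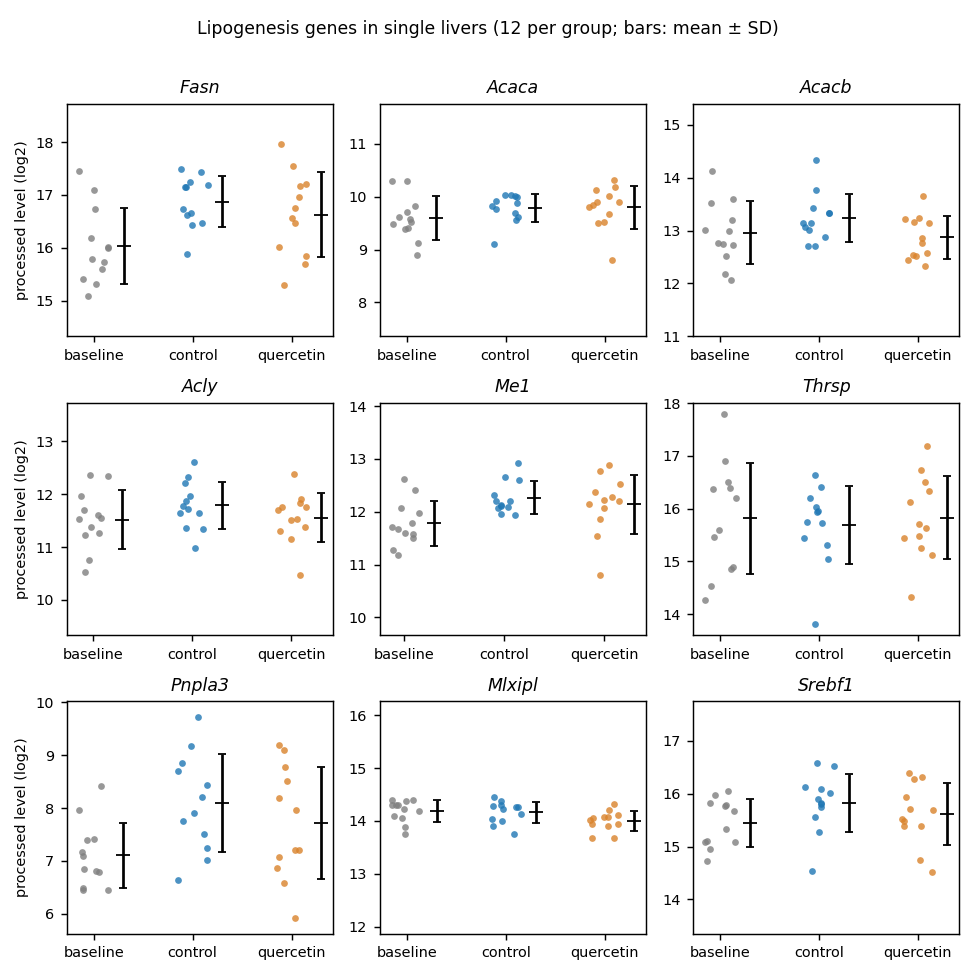
Processed log2 level of the brightest probe of each of the 9 genes in single livers, 12 per group, with black bars for the mean ± SD beside the points. Every panel spans the same number of log2 units. Fasn, Me1 and Pnpla3 shift upward from baseline to control, and Mlxipl varies least.

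Added quercetin did not move any lipogenesis gene past the test. Compared with the control group, 7 of 9 genes had a lower mean and 2 a higher one, with a median log2 difference of -0.22, a range from -0.38 to 0.13, and 0 of 15 probes called. Without quercetin replicate 4, the liver in which the members lay lowest, the median was -0.12 and the range from -0.32 to 0.27. Over all probes the median difference was 0.01, and 2.36% were called, 1.49% higher and 0.863% lower. By the brightest probes, 1 of the 9 genes, Acacb, had an unadjusted p under 0.05, against 3359 of all 21781 probes. The methods' t-test also called 0 of the 9. The spread between livers leaves changes of moderate size undetectable: for Fasn the difference was -0.24 with a 95% confidence interval from -0.75 to 0.26.

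Among the brightest probes that of Acacb had the lowest unadjusted p. Its level ran from 12.7 to 14.33 in the control livers (median 13.14) and from 12.33 to 13.65 in the quercetin livers (median 12.81). The ranges overlapped, and 7 of 12 quercetin livers lay below the control median. The difference was -0.37 (95% confidence interval -0.7 to -0.03, p = 0.0337, adjusted p = 0.275, limma), and the quercetin livers were lower on 5 of 9 slides. A second, dim Acacb probe, 3.78 times background, gave -0.03.

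Mlxipl had a small difference that did not pass the test. Its level ran from 13.75 to 14.45 in the control group (median 14.24), from 13.68 to 14.31 in the quercetin group (median 14.04) and from 13.76 to 14.4 at baseline (median 14.26). Of the 12 quercetin livers, 11 lay below the control median. Within slides the quercetin livers were lower on 6 of 9 and higher on 3, with differences from -0.56 to 0.24. The difference from control was -0.16 (95% confidence interval -0.32 to 0, adjusted p = 0.326). A second Mlxipl probe gave -0.18 with all 12 quercetin livers below the control median (p = 0.0276, adjusted p = 0.248, limma). Both probes missed the threshold, as they did against baseline, with -0.19 (adjusted p = 0.124) and -0.18 (adjusted p = 0.0799). Without baseline replicate 1 the brighter probe passed against baseline, with -0.23 and an adjusted p of 0.0443.

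The other genes overlapped broadly between the quercetin and the control group. Pnpla3 differed by -0.38 (95% confidence interval -1.14 to 0.38), and by -0.92 (adjusted p = 0.49) with the background-adjusted signals. With normexp background correction and loess normalization Pnpla3 differed by -0.24. Acly differed by -0.23 (-0.59 to 0.13), Srebf1 by -0.22 (-0.65 to 0.22) and Me1 by -0.13 (-0.47 to 0.22). Acaca differed by 0.01 (-0.25 to 0.28) and Thrsp by 0.13 (-0.45 to 0.72). The interval of Acaca was the narrowest of these 6, and for Pnpla3 and Thrsp even a 1.3-fold change in either direction was within it. Leaving out quercetin replicate 2, the bright array, called none of the 9 genes either.

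Between the quercetin group and baseline, 0 of 15 member probes were called, while 11.9% of all probes were, 6.62% higher and 5.3% lower. Fasn was higher by 0.59 (95% confidence interval 0.01 to 1.17, adjusted p = 0.178), Pnpla3 by 0.61 (-0.05 to 1.27, adjusted p = 0.229) and Me1 by 0.36 (-0.02 to 0.74, adjusted p = 0.219). These are the genes that passed between control and baseline, and the comparisons share the baseline livers. Passing in the control group and not in the quercetin group does not show a difference between them: the direct comparison called neither Fasn nor Me1 nor Pnpla3. Me1 passed when quercetin replicate 4 was left out, with 0.48 and an adjusted p of 0.0395.

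**Figure D2:**
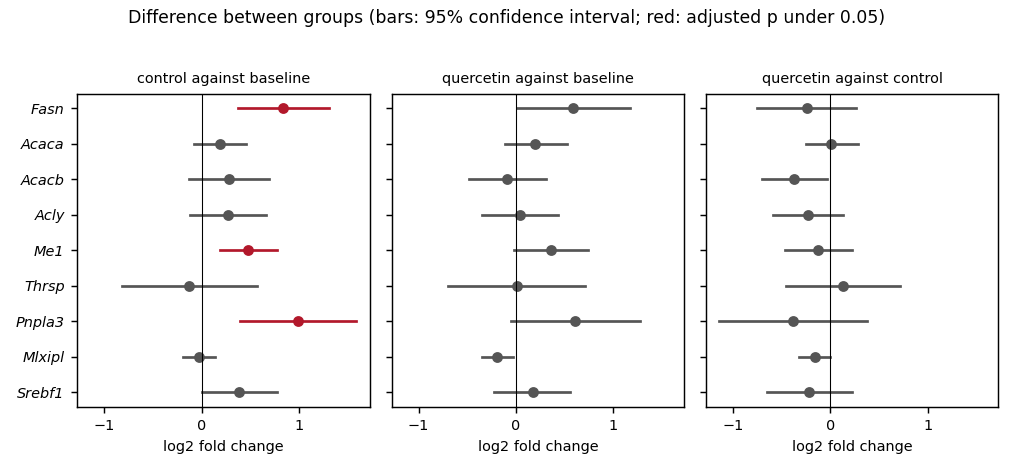
Log2 fold change of the 9 genes in the 3 comparisons, with 95% confidence intervals as bars. Red marks an adjusted p under 0.05, reached by Fasn (0.84), Me1 (0.48) and Pnpla3 (0.99) between control and baseline and by no gene in the other 2 comparisons.

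The genes around the pathway were followed in lists. Among 12 genes that supply precursors and NADPH, 4 rose from baseline to control and none fell, beside 10.9% of all probes higher and 10.4% lower. Tkt, a transketolase of the pentose phosphate pathway, rose by 0.25 (adjusted p = 0.000785), and the NADPH-forming dehydrogenases G6pdx and Pgd rose by 0.33 (adjusted p = 0.0318) and 0.27 (adjusted p = 0.0405). Tkfc, which phosphorylates glyceraldehyde from fructose, rose by 0.25 (adjusted p = 0.018). The median of the list was 0.18. With quercetin against control, G6pdx fell by 0.33 (adjusted p = 0.0344) from a mean of 9.9 to 9.56, close to its baseline mean of 9.57. This fall and the rise of G6pdx from baseline share the control livers, so they are not independent. The other 11 genes of the list were not called between quercetin and control, beside 2.36% of all probes called. Against baseline, quercetin livers had higher Tkfc (0.29, adjusted p = 0.021) and lower Gckr, the glucokinase regulator (-0.23, adjusted p = 0.0134), and Acss2, which activates acetate (-0.57, adjusted p = 0.0377). Over all probes 6.62% were higher and 5.3% lower in that comparison. Without control replicate 5, Gckr was also called against control (-0.23, adjusted p = 0.0366, from 0.164 with all livers).

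Of 9 genes of elongation, desaturation and esterification, Scd1 rose and Lpin1 fell from baseline to control, 2 of 9 being near the 21.3% of all probes called. Scd1, which introduces the double bond that makes oleate, rose by 0.73 (adjusted p = 0.0112). Lpin1, a phosphatidate phosphatase and coactivator of fatty acid oxidation, fell by 0.88 on the log2 scale (adjusted p = 0.039). Without control replicate 5 it missed the threshold, at -0.85 and an adjusted p of 0.0502. The median of the list was 0.09. Between quercetin and control 1 of the 9 was called, against 2.36% of all probes. The fatty acid elongase Elovl5 fell by 0.53 (adjusted p = 0.0195), and the list median was -0.16. None of the 9 was called between quercetin and baseline, beside 11.9% of all probes.

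Among 11 measured partners of SREBP, ChREBP and LXR of 12 listed, the median difference between control and baseline was 0.05. None was called, beside 21.3% of all probes. Without control replicate 5 there was 1, Mbtps1, a protease that cleaves SREBP (0.18, adjusted p = 0.0385, from 0.0691 with all livers). In the quercetin livers Insig2, which holds the SREBP precursor in the endoplasmic reticulum, was lower than in control (-0.83, standard error 0.15, adjusted p = 0.00233). It was also lower than at baseline (-0.67, adjusted p = 0.0114), together with Scap, the SREBP escort protein (-0.25, adjusted p = 0.0204), and the LXR gene Nr1h2 (-0.15, adjusted p = 0.0236). Of all probes, 0.863% were called lower with quercetin than in control, and 5.3% lower than at baseline. Srebf1 itself was not called in either of these comparisons. Of 7 genes that modulate acetyl-CoA carboxylase, 1 was called between control and baseline, against 21.3% of all probes. It was Mid1ip1, a relative of Thrsp that promotes assembly of the carboxylase, and it rose by 0.69 (adjusted p = 0.00424). None of the 7 was called between quercetin and control or between quercetin and baseline, beside 2.36% and 11.9% of all probes. The kinase subunits Prkaa1, Prkaa2, Prkab1 and Prkag1 of AMPK, which inactivates the carboxylases, differed by -0.1 to 0.11 between control and baseline, with none called.

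Of the genes that mark the fasted liver, 6 of 7 were measured, and 3 of them fell and 1 rose from baseline to control, beside 10.4% of all probes lower and 10.9% higher. Their log2 differences were -0.63 for Angptl4 (adjusted p = 0.0477), -0.43 for Ppargc1a (adjusted p = 0.0447) and -0.37 for Cpt1a (adjusted p = 0.00196). Without control replicate 5 both Angptl4 (-0.51, adjusted p = 0.0744) and Ppargc1a (-0.42, adjusted p = 0.0566) missed the threshold. Angptl4 inhibits lipoprotein lipase, Ppargc1a is a coactivator of gluconeogenic and oxidative genes, and Cpt1a admits fatty acids to the mitochondrion. Fgf21, a hormone of the liver that also responds to feeding state and carbohydrate, rose by 1.52 (adjusted p = 2.23e-05). Not called were Igfbp1 at -0.33 (adjusted p = 0.453) and G6pc, the last enzyme of glucose release, at 0.19 (adjusted p = 0.614). The list's median was -0.35. None of the 6 was called between quercetin and control (median 0.14), beside 2.36% of all probes. The differences there ran from -0.91 for Fgf21 (adjusted p = 0.0925, limma) to 0.39 for Angptl4 (adjusted p = 0.506, limma). Between quercetin and baseline none of the 6 was called either (median -0.21), beside 11.9% of all probes.

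Clock genes differed between quercetin and control livers, as 6 of 11 measured of 13 listed were called, against 2.36% of all probes. Arntl and Clock, which form the activating pair, differed by -1 (adjusted p = 0.0034) and -0.46 (adjusted p = 0.00437). Dbp, Tef and Nr1d2, which that pair drives, differed by 0.92 (adjusted p = 0.00741), 0.63 (adjusted p = 0.00414) and 0.42 (adjusted p = 0.0135). Nr1d1, another target of the pair, differed by 0 (adjusted p = 0.988). Between control and baseline 1 clock gene rose, Nfil3 (0.53, adjusted p = 0.0177). In that comparison 2 fell, Per3 (-0.28, adjusted p = 0.0379) and Bhlhe41 (-0.28, adjusted p = 0.0129), beside 10.9% of all probes higher and 10.4% lower. Between quercetin and baseline no clock gene was called, beside 11.9% of all probes. Without control replicate 5, Arntl (0.67, adjusted p = 0.0476, from 0.0695) and Clock (0.34, adjusted p = 0.0378, from 0.0702) were also called higher in control than at baseline. Lipogenesis genes are known to cycle over the day, so the clock values stand beside the results above. Within groups, Fasn showed r = 0.02 with Arntl (p = 0.9, permutation test) and r = 0.05 with Dbp (p = 0.782, permutation test) over the 36 livers. In the quercetin group alone these were 0.55 and -0.64, and in the control group -0.27 and 0.24. The part of clock time in the group differences was not tested.

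**Figure D3:**
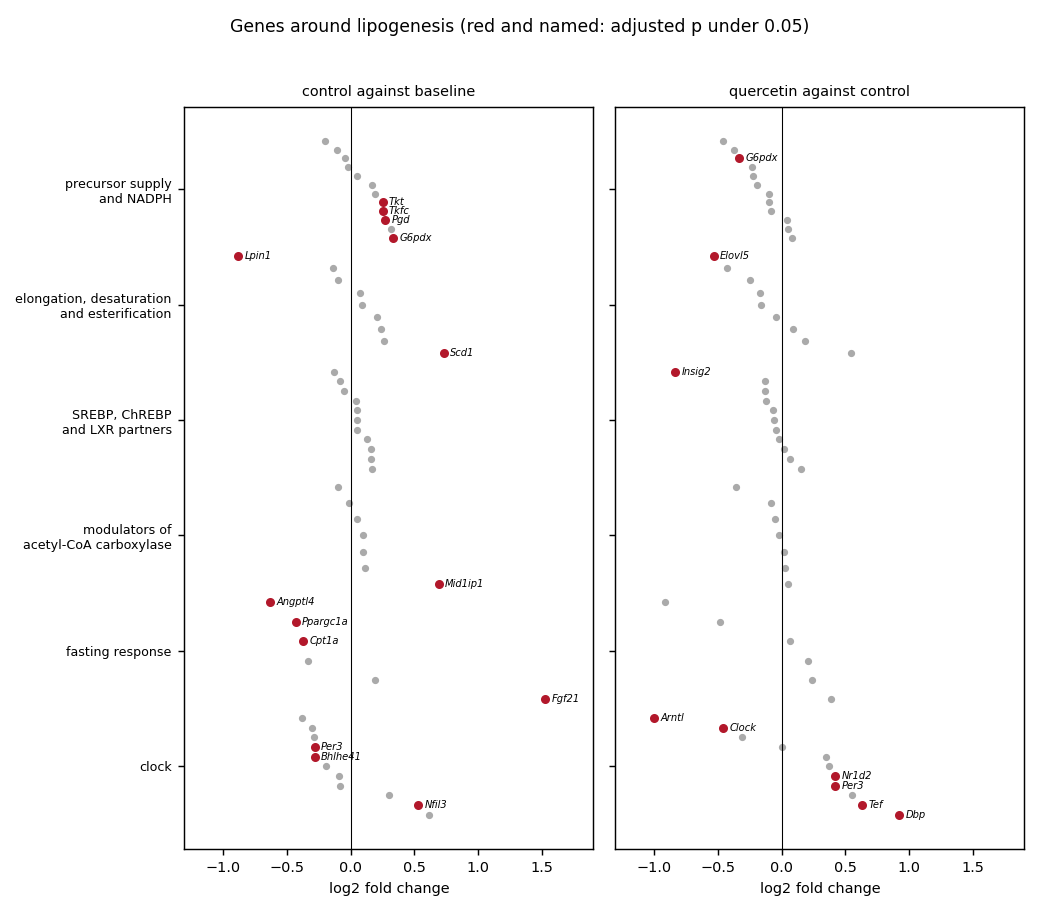
Log2 fold change of the genes of 6 lists around lipogenesis, control against baseline (left) and quercetin against control (right), 1 point per gene. Red named points passed at an adjusted p under 0.05: 4 supply genes rise on the left, 3 fasting genes fall there with Fgf21 rising, and the clock genes spread to both sides on the right.

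The livers of a group differed widely in lipogenesis gene levels, and most of the 9 genes rose and fell together from mouse to mouse. The spread within groups (pooled SD) was 0.89 for Pnpla3, 0.87 for Thrsp, 0.68 for Fasn, 0.53 for Srebf1, 0.49 for Acacb and Acly, 0.44 for Me1 and 0.37 for Acaca, against a median of 0.18 over all probes. For these 8 genes the SD exceeded that of 95.2% to 99.6% of all probes. Mlxipl was the exception, with 0.2 and 63.9%. These shares are over probes of every level, dim ones included, and no comparison at a matched level was made. Thrsp varied most among the bright probes: its level ran from 14.28 to 17.8 at baseline (median 15.9), an 11.4-fold range, from 13.82 to 16.63 in the control group (median 15.84) and from 14.33 to 17.18 in the quercetin group (median 15.68). The 3 ranges of Thrsp overlapped.

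After the group means were removed, Pearson's r was computed for all 36 pairs of the 9 genes over the 36 livers, with permutations within groups and adjustment over the 36 pairs. Of the 28 pairs without Mlxipl, 27 passed, with r from 0.21 to 0.85 and a median of 0.71. None of the 8 pairs with Mlxipl passed, with r from -0.2 to 0.04. Over the 34 livers without control replicate 5 and quercetin replicate 2, r ran from 0.27 to 0.85 without Mlxipl and from -0.16 to 0.16 with it. The highest was Fasn with Acly, at r = 0.85 and rho = 0.84, where permutation gave p = 1e-05, the smallest 100000 permutations can give (adjusted p = 2.25e-05). Leaving out the 2 livers farthest in Fasn gave 0.81, and removing the slide means gave 0.82. Those 2 livers were baseline replicate 10 and quercetin replicate 5, so quercetin replicate 4, in which the members lay lowest, stayed in. The r of Fasn with Acly was 0.85, 0.86 and 0.88 within the baseline, control and quercetin groups. Fasn with Thrsp followed, at r = 0.84 and rho = 0.82 (adjusted p = 2.25e-05, permutation test), with 0.79 without the 2 livers, 0.86 without slide means and 0.84, 0.92 and 0.84 within the groups.

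Acaca and Pnpla3 tracked Fasn as well. Acaca had r = 0.79 with Fasn (0.82, 0.77 and 0.78 within the groups), and Pnpla3 had 0.80 (0.85, 0.73 and 0.89). Acacb and Me1 formed a closer pair in the control group than with the rest: Acacb with Me1 had r = 0.92 there, while Acacb with Fasn had 0.19 and Me1 with Fasn 0.38. In the baseline and quercetin groups Acacb with Fasn had 0.88 and 0.74. Whether these correlations differ between groups was not tested.

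Of the transcription factor genes, Srebf1 correlated with most of the enzymes over the 36 livers, and Mlxipl with none past the test. Srebf1 had r = 0.71 with Fasn (rho = 0.68, adjusted p = 2.25e-05, permutation test), 0.66 with Thrsp and 0.63 with Acaca. It passed with 6 of the 7 genes other than Mlxipl, the exception being Acacb (r = 0.21, adjusted p = 0.276, permutation test). Its lowest passing r was that with Me1, at 0.40 (adjusted p = 0.0254, permutation test), which was -0.03 within the control group and 0.24 without the 2 livers farthest from the median. Mlxipl with Fasn had r = -0.18 (adjusted p = 0.354, permutation test), from -0.39 at baseline to 0.1 in the quercetin group. The median r of its 8 pairs was -0.45 at baseline, -0.15 in the control group and 0.37 in the quercetin group: with Acly it went from -0.65 at baseline to 0.44 with quercetin, and with Me1 from -0.59 to 0.49. In quercetin replicate 4 Acly, Me1 and Mlxipl all lay below their group means, with standardised deviations of -2.28, -3.11 and -1.66. This liver weighs heavily in the r values of that group. Whether these r values differ between groups was not tested. The 2 Mlxipl probes tracked each other with r = 0.90, but both were read from the same labelled RNA on the same array. Each liver had a single array, so repeatability cannot be judged. The array cannot show the nuclear forms or the activity of either factor, and in whole liver a lower level cannot be told apart from fewer cells that express the gene.

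**Figure D4:**
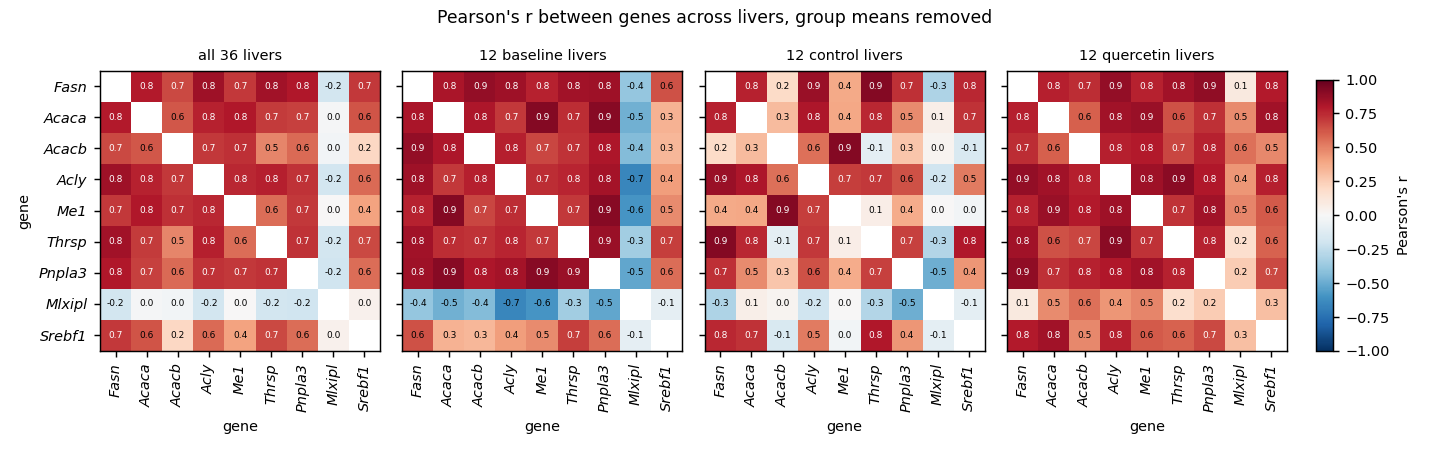
Pearson's r between the 9 genes across livers after removal of group means, for all 36 livers and for the 12 of each group (colour scale from -1 to 1). Over all 36 livers red blocks join the enzymes, Thrsp, Pnpla3 and Srebf1, palest for Acacb with Srebf1 (r = 0.21). The Mlxipl row stays near 0 there. In the control panel some pairs of Acacb and Me1 lie near or below 0, such as Acacb with Srebf1 (-0.15) and Me1 with Srebf1 (-0.03).

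Single livers showed the joint movement. In quercetin replicate 4 the members lay lowest, with a mean standardised deviation of -2.11 from the group, and its Fasn level of 15.3 was the lowest of that group. Baseline replicate 10 lay highest, with 1.64 and a Fasn level of 17.45. Of the 36 livers, 7 had all 8 genes other than Mlxipl above their group mean and 5 had all 8 below it. Control replicate 5, the liver with acinar markers, deviated by 0.16 in the mean, with members on both sides: its Fasn (17.48), Srebf1 (16.59) and Thrsp (16.63) were the highest of the control group and its Mlxipl (13.75) the lowest. The acinar markers had r of 0.17 to 0.19 with Fasn. These values rest largely on that liver, the only one with high acinar markers, and the part of acinar tissue in Fasn was not tested. The array's own brightness had r = 0.07 with Fasn (adjusted p = 0.9, permutation test). It was 0.19, -0.38 and 0.13 within the baseline, control and quercetin groups, the last holding the bright array of quercetin replicate 2. The mean of the 3 measured adipocyte markers (Fabp4, Cfd and Lipe) had r = 0.06 with Fasn (adjusted p = 0.9, permutation test).

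**Figure D5:**
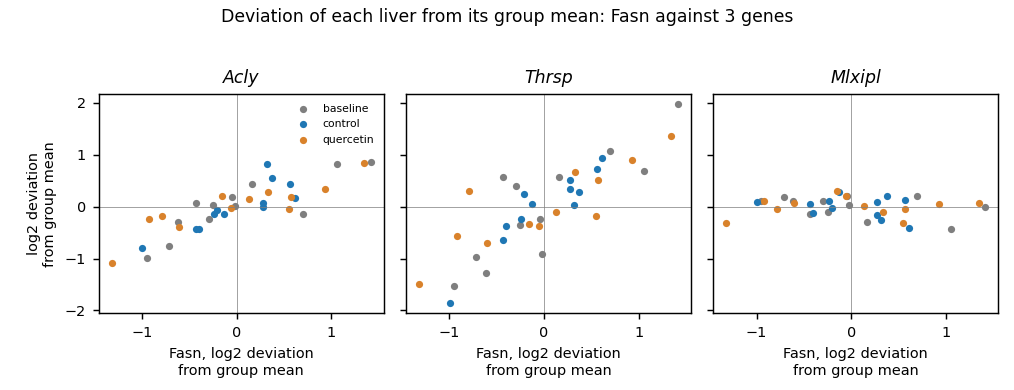
Deviation of each liver from its group mean on the log2 scale, Fasn on the x axis against Acly, Thrsp and Mlxipl, 36 livers coloured by group. Acly (r = 0.85) and Thrsp (r = 0.84) follow Fasn in all groups, and Mlxipl (r = -0.18) stays within a narrow band.

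The genes outside the set whose deviations were most like the mean of the 9 members over the 36 livers were, in this order, Gpam (r = 0.88), Slc2a4 (0.86), Pklr (0.83), Pgd (0.80), Elovl6 (0.80), Chrna4 (0.79), Hcn3 (0.79), Ccdc69 (0.78), Insig1 (0.77) and Slc25a44 (0.75). Gpam esterifies glycerol phosphate with the first fatty acid, Pklr is the liver pyruvate kinase, and Elovl6 lengthens palmitate. These r values are a description over livers that share slides, and were chosen as the highest of all probes. With Fasn alone, 1.07% of all probes had r of 0.5 or more and 1.54% had -0.5 or less. Among the listed genes, the median r with the member mean was 0.57 for precursor supply and NADPH and 0.56 for elongation, desaturation and esterification, against 0.04 for the SREBP, ChREBP and LXR partners and -0.2 for the fasting list. Angptl4 ran opposite to Fasn between livers of the same group, with r = -0.70 and rho = -0.73 (adjusted p = 6e-05, permutation test, over 6 relations of Fasn). It was -0.67 without the 2 livers farthest in Angptl4, -0.76 without slide means, and -0.73, -0.73 and -0.81 within the baseline, control and quercetin groups. Igfbp1, another fasting gene, had -0.17 (adjusted p = 0.9, permutation test).

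Markers of other cells were set beside these results. Kupffer cell markers (5 of 5 measured) had summed levels from 14.05 to 16.01 at baseline, 14.72 to 15.88 in the control group and 14.68 to 15.54 in the quercetin group. The macrophage receptor Marco had means of 11.12, 11.94 and 12.04 in that order. The summed erythroid markers (2 of 3 measured) ran from 14.44 to 15.18 at baseline, 15.08 to 16.75 in the control group and 15.25 to 16.26 in the quercetin group. The 2 markers went opposite ways: in the same order Hba-a1 had means of 14.33, 15.26 and 15.54, and Alas2 had 13.14, 13.01 and 12.88. The r of single Kupffer cell and erythroid markers with Fasn lay between -0.19 and 0.16. The part of these cells in the rise of Fasn, Me1 and Pnpla3 was not tested.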

How the data were processed

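Liver RNA of 36 mice was measured on 36 Agilent 2-colour arrays, 9 slides of 4, with all 3 groups on every slide. Per the file headers the spots were quantified by Agilent Feature Extraction 10.5.1.1. The scanner files deposited by the authors hold linear intensities of spot and background in both channels. The processed values that the authors deposited are log2 values for 23256 spots that they took as expressed. Each equals the log2 ratio of the median Cy5 over the median Cy3 intensity plus a constant per probe, with no background subtraction and every array at a median of 8.96 (after centring each probe, the median absolute difference from that ratio was 4.63e-07). With the probe's mean log2 Cy3 intensity in place of the constant, and each array centred, the median absolute difference was 0.0192. The constant thus lay close to the reference intensity of the probe, up to a shift. Levels were not compared between genes.

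Spots of a probe were averaged, and groups were compared in pairs by limma's moderated test, two-sided, with Benjamini-Hochberg adjustment over 21781 probes. A probe was called at an adjusted p under 0.05. The brightest probe stood for a gene. Of 41174 probes, 24375 were named by accession through RefSeq and 6301 by the file's current gene symbol. The genes named are all 9 members, the called genes of the 6 lists (up to 5 per list and comparison, with 1 listed gene not reported here), and the 10 genes most like the members' mean. The members, lists and tests were chosen with earlier results of these data known. Correlations used 100000 permutations within groups. The number of arrays limits the precision. Mice of the same replicate number were not pairs: the median correlation of residuals of same-numbered mice was -0.01 to 0.061 over the 3 comparisons, and 3 or 4 of 12 pairs exceeded 0.1.

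Alternatives changed the background correction, normalization, filter, slide, replicate block, arrays in the fit, test and choice of probe. Leaving out quercetin replicate 2 was set from the start. Leaving out each other array, the lists and correlations without the arrays that stand apart, and removing slide means or comparing within slides were added after seeing the data. The procedure was tested on simulated data. R 4.3.3, limma 3.58.1, data.table (version 1.17.8), Python 3.11.15 and matplotlib 3.10.9 were used.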

Additional observations from a re-analysis of the deposited data

How the results depend on the processing

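Fasn, Me1 and Pnpla3 were called between control and baseline under all 11 alternative settings and without any 1 of the 24 arrays. Their log2 differences ranged from 0.75 to 0.92, 0.42 to 0.52 and 0.81 to 1.74 over the 11 settings, and their adjusted p values from 0.00562 to 0.0493. Leaving out 1 array gave 0.75 to 0.96, 0.42 to 0.56 and 0.84 to 1.12, with adjusted p values from 0.00184 to 0.0314. With the replicate block, 3 genes were called between control and baseline and 0 in each of the other 2 comparisons, as without it, and with slide as a block the counts were also 3, 0 and 0. No alternative called a member between quercetin and control, although the count over all probes fell from 513 to 210 with slide as a block. Leaving out 1 array gave 0 to 1 genes between quercetin and baseline and 3 to 4 between control and baseline.

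Signs turned only for differences near 0 that were not called. With the mean of its probes Acaca gave -0.018 between quercetin and control. With slide as a block Thrsp gave 0.002 between control and baseline and Acacb 0.003 between quercetin and baseline. Between quercetin and baseline Thrsp gave -0.04 with normexp and loess (with and without the filter), -0.022 with the Feature Extraction signals, -0.01 with quantile normalization and -0.055 without quercetin replicate 2. Leaving out 1 array at a time moved Acaca from -0.049 to 0.105 and Thrsp from -0.035 to 0.27 between quercetin and control. It moved Thrsp from -0.27 to 0.052 and Mlxipl from -0.066 to 0.012 between control and baseline. Between quercetin and baseline it moved Thrsp from -0.133 to 0.19, Acly from -0.05 to 0.14 and Acacb from -0.17 to 0.021. The correlations between genes moved by at most 0.19 with normexp and loess values, and those without Mlxipl ranged from 0.23 to 0.85 there. The size of a difference at a dim probe depends on the processing, which concerns Pnpla3 most.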
